A study of Ictidomys tridecemlineatus with 5 samples.

Results

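Complement transcripts were examined in a ground squirrel, Ictidomys tridecemlineatus, with the eye and the isolated retina as the tissues measured. The animal is a hibernating rodent with a cone-rich retina. The members described are 9 Swiss-Prot names: the C1q chains C1QA, C1QB and C1QC, the central component CO3 (gene C3), the alternative pathway proteins CFAB (CFB) and CFAD (CFD), and the regulators CFAI (CFI), DAF (CD55) and CD59. A transcript was taken as a member when the name of its best Swiss-Prot hit, without the species code, matched one of these. Of the 9, 8 were found in both tables, among 13949 names that both tables share. The regulator CFAI had no transcript under its name in either table, so it has no level here. These members had 16 transcripts in eye and 18 in retina.

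The series holds 2 eye libraries and 3 retina libraries of sequenced RNA. All animals were labelled wild type in strain and genotype, and no treatment is named. RNA of 4 animals was pooled for a library preparation, per the labels' protocols. The labels name no age, sex or season. The deposited tables hold 1 value per assembled transcript and tissue, read here as RPKM, which is a read count scaled by transcript length and by sequencing depth. Without values per library, the spread between libraries is unknown for every level and difference, and nothing was tested.

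Complement is a cascade of plasma and cell-surface proteins that marks microbes, debris and, in nervous tissue, synapses for removal. C1q, which microglia and macrophages make, starts the classical pathway, mannose-binding lectins and collectins start the lectin pathway, and factor B and factor D amplify the response through the alternative pathway. All of these converge on C3, while membrane proteins such as CD55 and CD59 shield host cells.

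The level of a member is the RPKM of its highest transcript, and the interval given with a level is the exact Poisson 95% interval of the reads recovered behind it, which covers counting error only. Reads were recovered from the values because multiplying a value by its transcript length gave whole multiples of the worth of 1 read. At 1 RPKM a transcript of 1000 bases has 264 reads in eye and 356 in retina, on scaling totals of 264219334 and 355988270 reads. The difference given for a name is its log2(RPKM + 1) in eye minus that in retina, a scale that shrinks differences of low genes. A name is called at least 2-fold higher when this difference reached 1, and at least 4-fold when it reached 2. Ratios are plain ratios of RPKM, so a low name can have a ratio above 2 without passing the 2-fold mark. Names were compared when both tables held them and at least 1 tissue reached 1 RPKM. The tissue labels were checked against markers. The summed level of the 5 photoreceptor markers found, of 6 listed, was 2857 RPKM in eye and 5539 in retina. That of 5 lens markers was 6630 RPKM in eye and 25.3 in retina, where LMIP and MIP had no transcript, and that of 6 markers of the retinal pigment epithelium was 1704 and 634. RLBP1, also listed as a marker of Mueller glia, gave 323 of the 634 RPKM in retina, and RGR gave 218. RPE65 had 17.5 RPKM in retina (eye 238), TTHY 56.2 (682) and MITF 2.26 (8.99), while BEST1 had 16.6 (15.8). The sum therefore does not show how much pigment epithelium the retina samples held. Names on this list were present in the retina table, and photoreceptor transcripts were present in the eye table. In bulk tissue, fewer cells of a type and less RNA per cell cannot be told apart.

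Complement members were higher in eye than in retina. By the highest transcript, 8 of the 8 members compared stood higher in eye, where 49.7% of all 13383 names compared did. At least 2-fold higher in eye were 7 of 8, against a background of 11.8% of all names, and none was at least 2-fold higher in retina, against 3.60%. At least 4-fold higher in eye were 4 members, C1QA, C1QB, C1QC and CFAB, against 3.82% of all names. By the plain ratio, 7 members and 15.3% of names were also at least 2-fold higher in eye. The median difference over the 8 members was 1.86, beside -0.0035 over all names. When the tissues were scaled to an equal total over proteins, 5 members and 8.96% of names passed the 2-fold mark in eye and 6.74% of names passed it in retina, with a median of -0.24 over all names. With transcripts summed per name, these shares were 16.8% and 19.3%, and 7 members passed in eye. CFAB and CFAD reached 1 RPKM in eye only, so both entered the comparison through the tissue where they were higher.

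**Figure D1:**
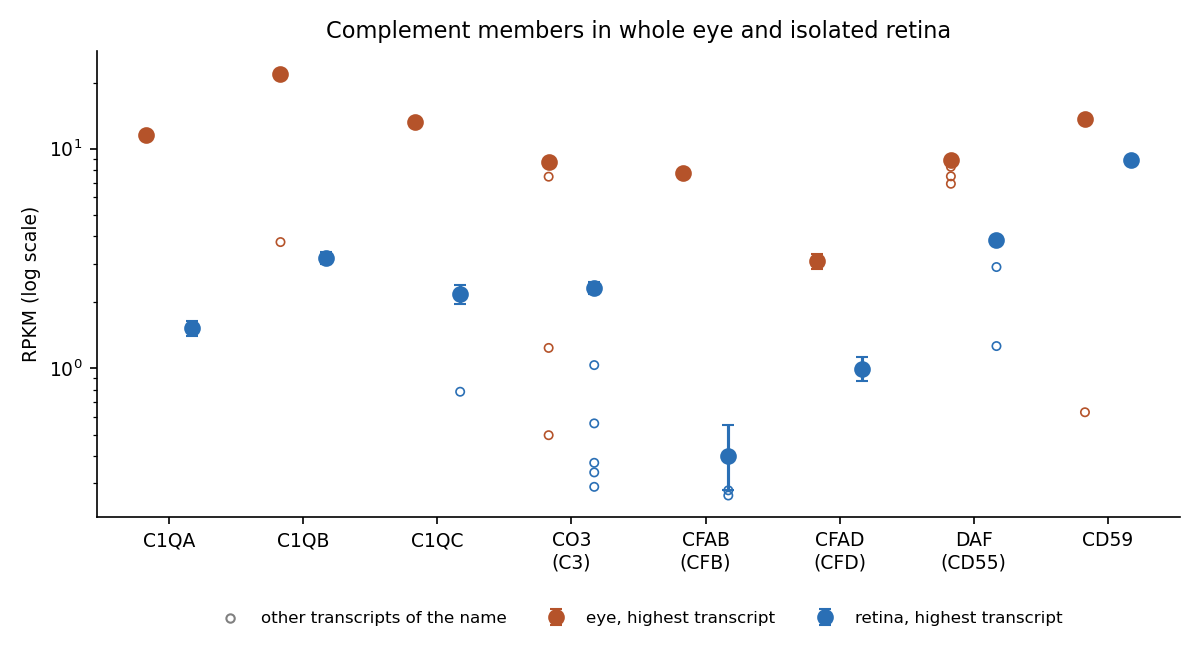
RPKM (log scale) of the 8 complement members in eye (orange) and retina (blue). Large points are the highest transcript of a name with its 95% counting interval, and open points are its other transcripts; no member's highest transcript was higher in retina, and CFAB had the widest gap, 7.76 against 0.400 RPKM.

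The order of the members differed between the tissues. In eye C1QB was highest at 21.8 RPKM, followed by CD59, C1QC, C1QA, DAF, CO3, CFAB and CFAD. The counting intervals of CD59 and C1QC overlapped, as did those of DAF and CO3, so these neighbours did not differ beyond counting error. In retina CD59 was highest at 8.90 RPKM, followed by DAF, C1QB, CO3, C1QC, C1QA, CFAD and CFAB, and only CO3 and C1QC overlapped. The retina place of CO3 rests on a weak hit over 89 residues: with the best-matching transcript, at 1.03 RPKM (0.968 to 1.11), it stood below C1QA and overlapped CFAD. The places of CD59 rest on transcripts at 64% similarity, which may not be CD59, since a better match in eye was at only 0.631 RPKM. The regulators CD59 and DAF thus stood above every other member in this order in retina, while in eye all the C1q chains stood above DAF. Against all names compared, C1QB was above 75.0% of names in eye and 22.5% in retina, CD59 above 62.1% and 50.2%, and CFAD above 17.2% and 6.03%.

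C1q, the recognition molecule of the classical pathway, is built from the A, B and C chains. C1QA, the A chain, was at 11.6 RPKM in eye (95% interval 11.2 to 11.9) and 1.53 in retina (1.41 to 1.65), a difference of 2.32 and a ratio of 7.59. C1QB, the B chain, was at 21.8 RPKM (21.2 to 22.4) and 3.19 (3.00 to 3.40), with a difference of 2.44 and a ratio of 6.82. C1QC, the C chain, was at 13.3 RPKM (12.9 to 13.7) and 2.17 (1.97 to 2.39), a difference of 2.17 and a ratio of 6.11. All the C1q chains were therefore low in retina and 6.11 to 7.59 times higher in eye, and their intervals in the tissues lay far apart.

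The C1q chains also kept the same order in both tissues, with C1QB above C1QC and C1QC above C1QA. The ratio of C1QB to C1QA was 1.88 in eye and 2.09 in retina, that of C1QB to C1QC was 1.64 and 1.47, and that of C1QC to C1QA was 1.15 and 1.42. The retina value of C1QC came from a transcript of 560 bases, against 1069 in eye, and another retina transcript of 305 bases stood at 0.783 RPKM. Length-weighted over its transcripts, C1QC differed by 2.41, and with transcripts summed by 1.85. In the RefSeq annotation of assembly mIctTri1.hap1, where 8 of the 9 member symbols were found, C1qa, C1qc and C1qb follow each other with 0 protein-coding genes between them. The table of that assembly was used for names and neighbours only.

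C1q is made by microglia and macrophages, whose markers moved with it. Of the 12 markers listed, 10 were in both tables. All 10 were higher in eye, where 49.7% of all names were, and 7 passed the 2-fold mark, against 11.8%. PTPRC, named after its values were seen, did not pass it but had a plain ratio of 4.00. PTPRC, TREM2 and CD14 reached 1 RPKM in eye only, with 0.405, 0.540 and 0.492 in retina, so they entered the comparison through eye. The median difference of the 10 markers was 1.20. The summed level of all markers found, with CSF1R counted in retina, was 124 RPKM in eye and 38.1 in retina, a ratio of 3.27. The lysosomal protein CD68 was at 10.7 and 1.81 RPKM, the signalling adaptor TYOBP at 22.1 and 6.37, and the invariant chain HG2A (CD74) at 64.3 and 14.0. P2Y12, a receptor of resident microglia, had nearly equal levels of 2.83 RPKM (eye) and 2.76 RPKM (retina), and the fractalkine receptor CX3C1 at 1.69 and 1.12. CSF1R had a transcript in the retina table alone, at 5.74 RPKM, and CD163 was in neither. By the main measure the C1q differences of 2.17 to 2.44 lay above those of the macrophage markers, which ran from 0.027 to 2.13. The lowest of them, C1QC at 2.17 plus or minus 0.102, did not differ from HG2A at 2.13 beyond counting error. The part of these cells in the C1q differences was not tested.

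**Figure D2:**
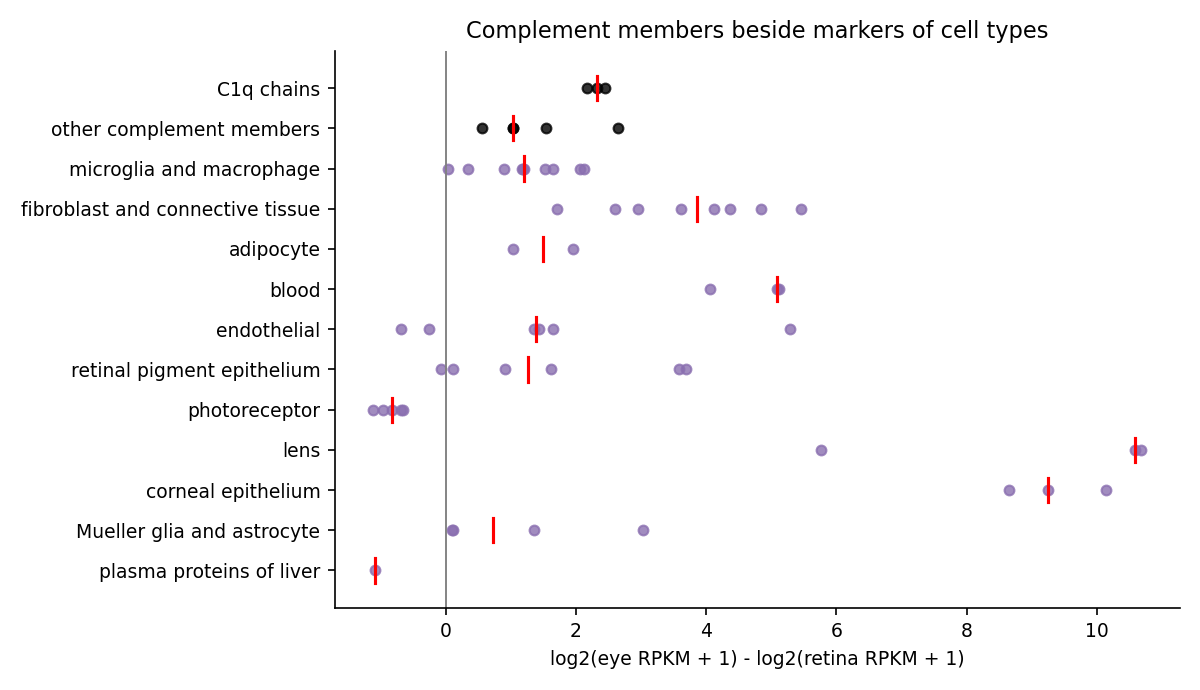
Eye minus retina difference in log2(RPKM + 1) of the C1q chains and the other complement members (black) beside markers of cell types (violet). Each point is 1 name in both tables, red bars are medians and the grey line is the median of all names; the C1q chains lie at 2.17 to 2.44 and the microglia and macrophage markers at 0.027 to 2.13.

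CO3 is the precursor of the central complement component, whose cleavage deposits the opsonin on surfaces. It was at 8.66 RPKM in eye (8.51 to 8.82) and 2.32 in retina (2.18 to 2.46), a difference of 1.54 and a ratio of 3.73. The eye value came from a transcript of 5078 bases that aligned over 1639 residues of rat C3. The retina value came from a transcript of 1282 bases that aligned over only 89 residues, to the guinea pig entry, with an E-value of 1.38e-08, and so may not be C3. The best-matching retina transcript, of 2386 bases and 783 aligned residues, was at 1.03 RPKM, and the difference with it was 2.25. With hits limited to E-values of 1e-20 or less the difference was likewise 2.25. Retina held 6 transcripts under this name and eye 4, of which 2 in eye were weak hits with E-values of 1.42e-09 and 2.42e-07.

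The alternative pathway proteins were the lowest members in retina. CFAB, the protease zymogen of the alternative convertase, was at 7.76 RPKM in eye (7.59 to 7.93) and 0.400 in retina (0.280 to 0.553), a difference of 2.65 and a ratio of 19.4 (95% counting interval 14.0 to 26.9). That ratio rests on the highest retina fragment, and with transcripts summed retina was at 0.942 RPKM and the difference 2.17. The eye transcript of 3921 bases carried 8041 reads and aligned over 764 residues at 92% similarity. Retina held 3 fragments of at most 253 bases, with 77 reads in all, and its highest carried 36 reads. CFAB was thus near the bottom of the retina table, above 1.08% of names. CFAD, the serine protease that cleaves factor B and a product of fat cells, was at 3.07 RPKM in eye (2.84 to 3.32) and 0.994 in retina (0.878 to 1.12). Its ratio was 3.09 (2.68 to 3.57). On the log2(RPKM + 1) scale its difference was 1.03 plus or minus 0.121 by counting error, an interval that includes the mark of 1.

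Adipocyte markers moved in the same direction as CFAD. All 6 were in the eye table, at a summed 51.5 RPKM, and ADIPO, FABP4, PLIN1 and PLIN4 were in the eye table only. Over all names, 13949 of the 15287 in eye were also in retina. The retina table held LIPS and CIDEC, at a summed 6.18 RPKM. The part of fat tissue in the CFAD difference was not tested.

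**Figure D3:**
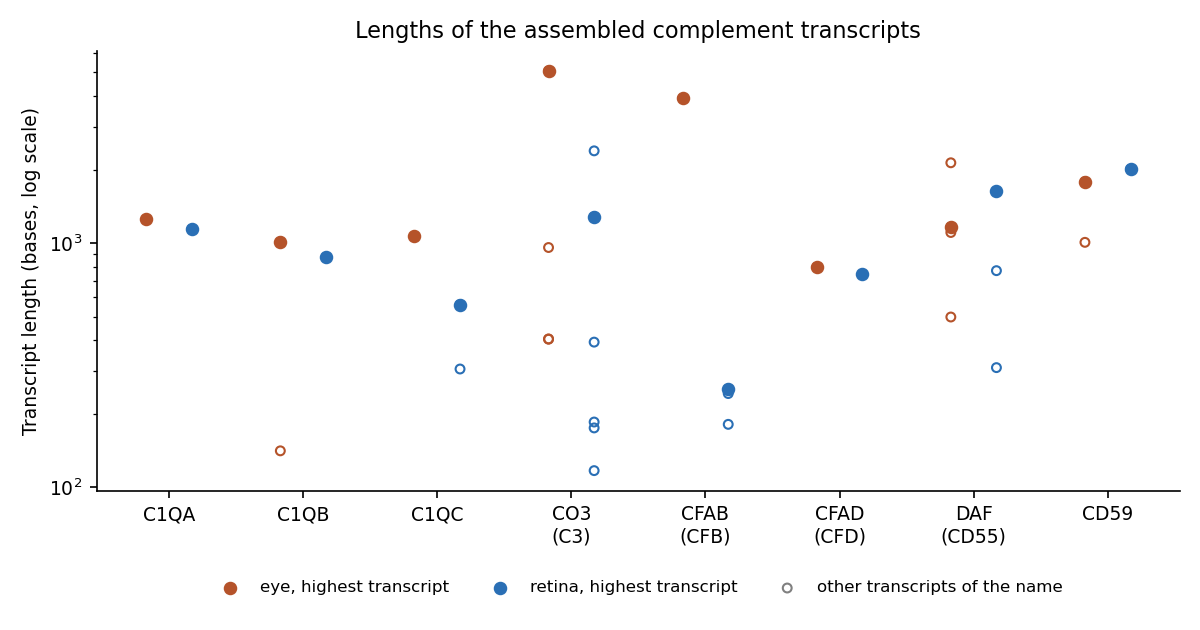
Lengths in bases (log scale) of every transcript assigned to a complement member in eye (orange) and retina (blue), with the highest transcript of each name filled. CO3 has its longest transcript at 5078 bases in eye and 2386 in retina, and CFAB has 1 of 3921 bases in eye and at most 253 bases in retina.

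DAF (CD55), a membrane-anchored regulator that dissociates convertases on host cells, was at 8.86 RPKM in eye (8.53 to 9.20) and 3.82 in retina (3.67 to 3.99). Its ratio was 2.32 (2.19 to 2.45). Its difference was 1.03 plus or minus 0.068, an interval that includes the mark of 1 on the log2(RPKM + 1) scale. Eye held 4 transcripts under the name DAF at 6.92 to 8.86 RPKM, and retina held 3 at 1.26 to 3.82. The eye transcript at 6.92 RPKM and the retina ones at 2.89 and 1.26 aligned over only 46 to 48 residues of the guinea pig entry. These short hits may not be DAF. With them counted, the lowest in eye lay above the highest in retina. With transcripts summed, these short hits included, the difference was 1.86. Among the rodent paralogue names, DAF2 was in the eye table only, at 0.467 RPKM, and DAF1, CD59A, CD59B and CR1L were in neither.

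CD59, the membrane-anchored protein that blocks assembly of the membrane attack complex, was the member nearest to equal. It was at 13.6 RPKM in eye (13.3 to 13.9) and 8.90 in retina (8.68 to 9.12), a difference of 0.56 and a ratio of 1.53. These values came from transcripts of 1786 and 2010 bases that hit the same entry at 64% similarity. Eye also held a transcript of 1007 bases that matched CD59 better, at 80% similarity, but stood at only 0.631 RPKM. The transcripts at 64% therefore may not be CD59. Retina had only 1 CD59 transcript, the one at 64%, so the difference of -2.60 with best-matching transcripts sets unlike transcripts side by side. With length-weighted means the difference was 0.0044.

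**Figure D4:**
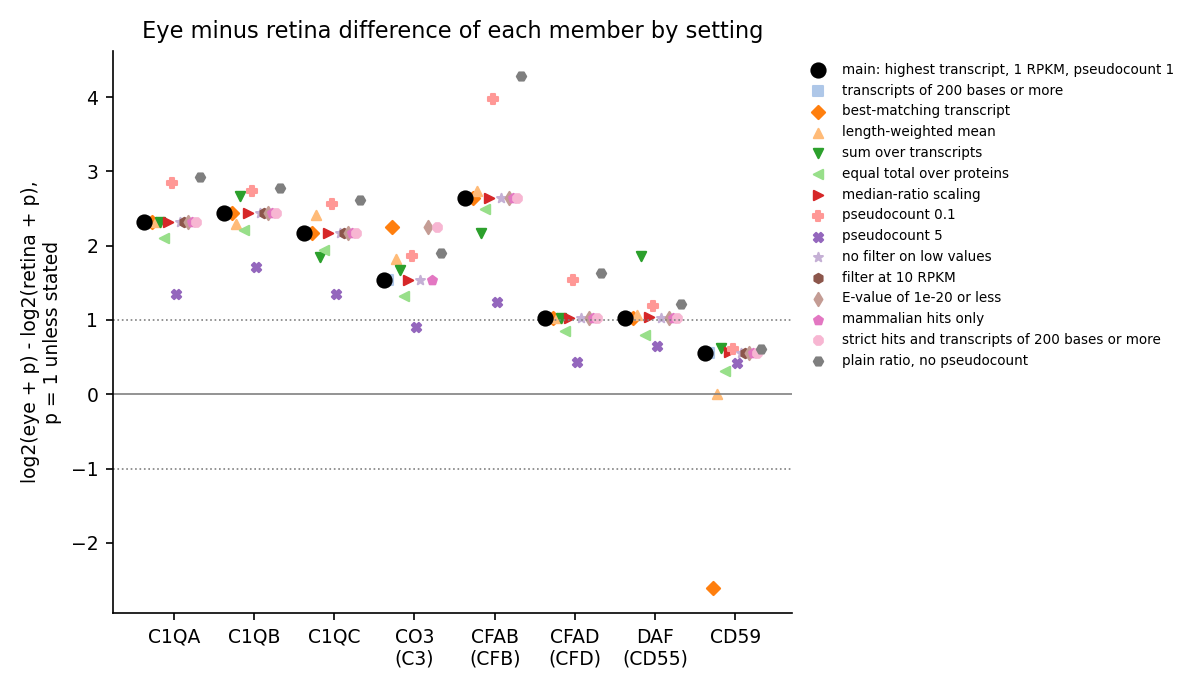
Eye minus retina difference of each complement member under the main measure (black, highest transcript) and 14 alternatives (coloured). Dotted lines mark a difference of 1 in either direction; the C1q chains and CFAB stay above the upper line wherever they have a value, and CD59 falls to -2.60 with best-matching transcripts.

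The rest of the pathway was described from a wider list of 57 Swiss-Prot names that holds no member. Of these, 27 were in both tables, 3 in eye only, 1 in retina only and 26 in neither. Over all names, eye held 15287 and retina 14600, and 13949 were in both. Among the 24 compared, 16 were higher in eye, where 49.7% of all names were. The 2-fold mark was passed by 8 in eye and 1 in retina, against 11.8% and 3.60% of all names, and the median difference was 0.44. CO2, C1QR1, ITB2, ITAM and CO8G reached 1 RPKM in eye only. CSMD2, CSMD3 and C4BPB, named after their values were seen, reached it in retina only. All of these names entered the comparison through the tissue where they were higher. With the plain ratio in place of this mark, 10 names passed in eye and 3 in retina, against 15.3% and 4.83% of all names. The named ones are those past 2-fold and the 4 with the highest mean level in each role.

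Initiators and proteases followed the C1q chains only in part. Of 10 compared, 5 were at least 2-fold higher in eye. The C1q-associated proteases were C1R, at 19.6 RPKM against 2.98 in retina, and C1S, at 45.6 against 17.3. Their differences were 2.37 and 1.35, so the ratio of C1S to C1R by the highest transcript was 2.32 in eye and 5.81 in retina. With transcripts summed the differences lay closer, at 2.50 for C1R and 2.20 for C1S. C1r and C1s are neighbouring genes in the annotation. CO2 and CO4A (C2 and C4), which form the classical C3 convertase, were at 4.94 and 0.922 RPKM and at 11.2 and 2.01. C2 lies next to Cfb with 0 protein-coding genes between, and C4a is 4 protein-coding genes from Cfb. CO4B had transcripts in retina alone, at up to 0.560 RPKM, and C4 names are close copies that may share reads.

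Names of the lectin pathway included collectins, a ficolin and proteases. COL12, a scavenger receptor collectin, was higher in eye, at 20.2 RPKM against 6.94. COL11, a soluble collectin, was the only name of the wider list past the mark in retina by the main measure, at 4.10 against 10.6 RPKM, a difference of -1.19. The mannose-binding lectin MBL2, at 3.21 against 2.16 RPKM, and the ficolin FCN1, at 4.49 against 2.75, were named after their values were seen. MASP2, the protease of the lectin complexes, was named in the same way: it was at 4.36 and 7.07 RPKM, a difference of -0.59, on transcripts that aligned over 39 residues in both tissues. Its difference was -0.27 with best-matching transcripts and -1.37 with strict E-values. MASP1, a related protease, had transcripts in eye alone, at 1.53 RPKM. PROP (properdin), which stabilises the alternative convertase and was also named after its values were seen, was at 2.43 and 3.95 RPKM.

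Terminal components were scarce. Of the 6 listed, CO8A, CO8B and CO9 were in neither table. CO6 had 0.671 RPKM in eye against 0.921 in retina and CO7 at 0.550 and 0.512, both under the minimum, and CO8G was at 1.70 and 0.961.

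Among regulators other than the members, 9 of 10 compared lay within the 2-fold mark, as did 84.6% of all names, with a median difference of 0.038. By the plain ratio 6 of 10 lay within 2-fold: MCP (CD46) had a ratio of 2.28, and CSMD2 and CSMD3 were 2.03 and 2.38 times higher in retina, all named after their values were seen. The name past the mark was IC1 (SERPING1), the inhibitor of C1r and C1s, at 163 RPKM against 33.1 in retina, with a difference of 2.26. Clusterin, CLUS, a secreted chaperone that also binds terminal complexes, was at 590 and 556 RPKM on transcripts of 236 and 143 bases, and differed by -1.37 with best-matching transcripts and by 0.95 with transcripts of 200 bases or more. Vitronectin, VTNC, was at 66.9 and 67.4 RPKM, and C1QBP, a mitochondrial protein named for its binding to C1q, at 38.6 and 30.9. Of the regulators compared, members included, clusterin was the most abundant in both tables by this measure.

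Receptors were few and low. C1QR1 (CD93), a protein of endothelial and myeloid cells, had 3.71 RPKM in eye against 0.311 in retina, the latter from 22 reads. The integrin chains of complement receptor CR3 were ITAM, at 1.16 and 0.321 RPKM, and ITB2, at 1.83 and 0.226, the latter from 14 reads. VSIG4, a macrophage receptor for C3 fragments, was in the eye table only, at 1.13 RPKM. The anaphylatoxin receptors C3AR and C5AR1 and the receptors CR1 and CR2 were in neither table.

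**Figure D5:**
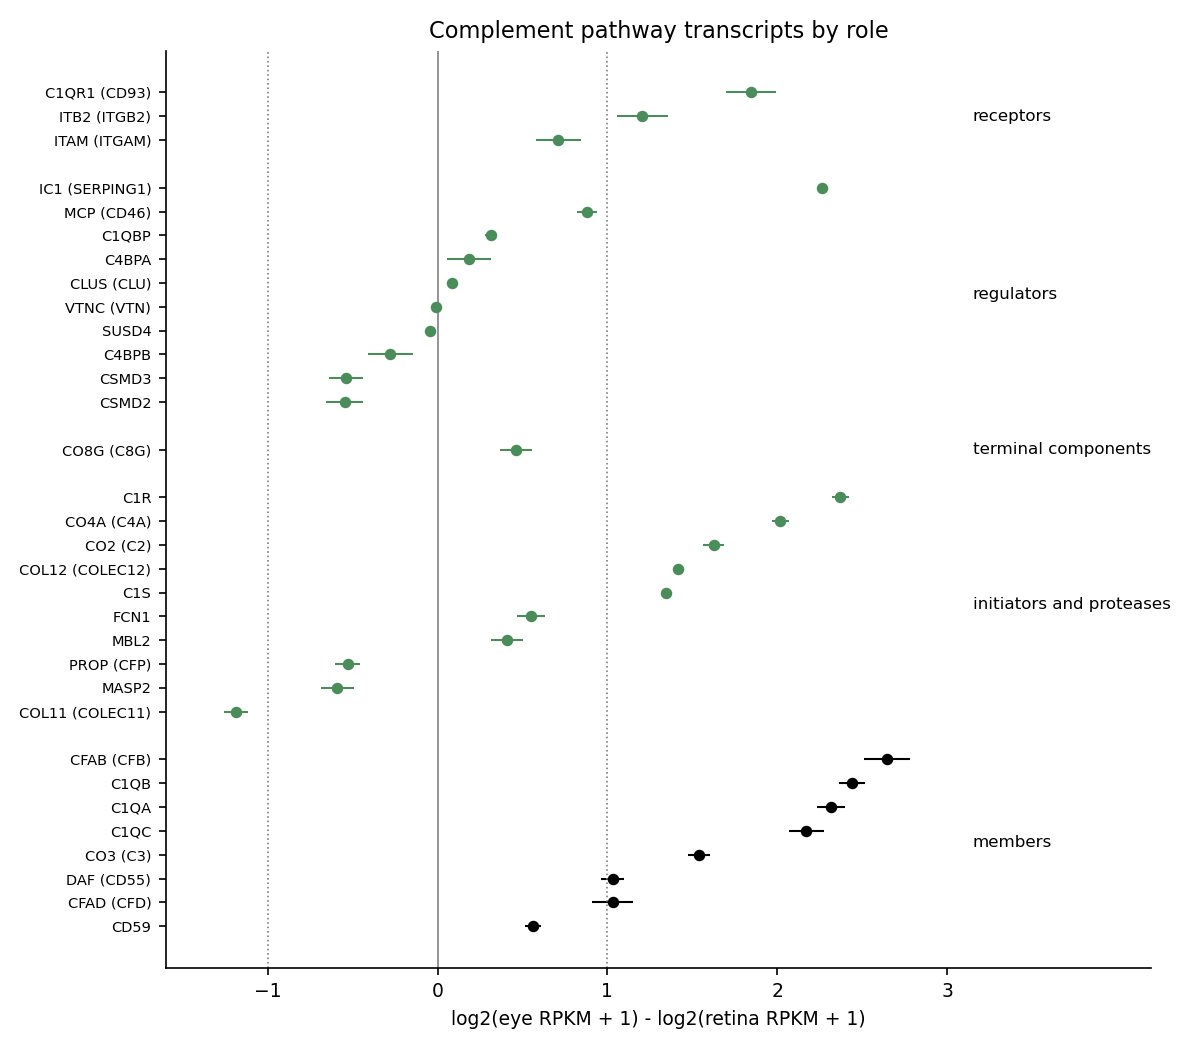
Eye minus retina difference in log2(RPKM + 1) of the 8 members (black) and the 24 compared names of the wider complement list (green), by role. Bars are 95% counting intervals and dotted lines mark a difference of 1; COL11 at -1.19 is the only point beyond the left line.

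Markers of connective tissue and blood were also higher in eye. All 8 fibroblast and connective tissue markers were at least 2-fold higher in eye, where 11.8% of all names were, with a summed level of 707 RPKM against 28.7 in retina. The 3 blood markers found summed to 8873 and 257 RPKM. Of the 4 names listed as plasma proteins of liver, albumin, ALBU, was in the eye table only, at 2.53 RPKM. Transferrin, TRFE, was lower in eye, at 442 against 942 RPKM. APOA1 was at 0.846 and 0.586 RPKM, under the minimum, and FETUA was in neither table. The source of the TRFE transcripts was not tested. Of 6 endothelial markers, 4 were at least 2-fold higher in eye, with sums of 133 and 90.9 RPKM. ESAM and VGFR2 were lower in eye, with differences of -0.26 and -0.69. The higher sum in eye rested on PLVAP, with 50.9 RPKM against 0.336, a wider gap than that between the sums. The part of these tissues in the levels of CO3, C1R, C1S and IC1 was not tested.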

How the data were processed

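Each tissue has 1 table of transcripts with a length and an expression value, deposited by the authors, and 1 table of best Swiss-Prot hits with an E-value, score and percent similarity, per the file headers. The deposited values were read as RPKM, because value times length was a whole multiple of 1 constant per table for 100% of transcripts, within 0.01 reads. Bowtie is named without a version in the submitters' processing notes; for the assembler, the counting mode and any genome build, the entry is: not given in the sources used here. Recovered reads summed to 19.2 times the scaling total in eye and 10.5 times in retina, so reads may be counted on several transcripts, while the counting intervals treat reads as independent.

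The members and lists were chosen with earlier results of these data known. Levels are the highest transcript of a name (Python 3.11.15, pandas 2.3.3, scipy 1.17.1). The tables were assembled and normalized separately, so levels are set across them without a test. The 2-fold mark is a difference of 1 in log2(RPKM + 1). A listed member is not reported here and is left out of the counts. The others are all named, and of the wider list those past 2-fold and the 4 highest per role. Functions were tested on simulated data. The 14 alternatives cover transcript choice, scaling, pseudocount, filters and hits; 2 of them, strict hits with transcripts of 200 bases or more and the plain ratio, were chosen after seeing the data.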

Additional observations from a re-analysis of the deposited data

How the results depend on the processing

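No paired analysis was possible because the tables hold 1 value per tissue and none per library; for the same reason no library could be left out. Of the 8 members, all were higher in eye under 13 of 14 alternatives, counting 4 members with the filter at 10 RPKM; the exception was CD59 with best-matching transcripts, at -2.60, which compares unlike transcripts. At least 2-fold higher in eye were 7 of 8 members by the main measure, against 11.8% of all names. This was 5 of 8 at an equal total (8.96% of all names), 4 of 8 with pseudocount 5 (6.09%) and 3 of 4 with the filter at 10 RPKM (12.8%), which left fewer names. That CD59 value put 1 of 8 members at least 2-fold higher in retina, against 3.17% of all names. The members' median, 1.86 by the main measure, was 2.21 with best-matching transcripts, strict E-values, strict hits with long transcripts and pseudocount 0.1, 2.24 with the filter at 10 RPKM, 2.26 with the plain ratio (chosen after seeing the data), 2.06 with length-weighted means, 1.63 at an equal total over proteins and 1.07 with pseudocount 5. Equal totals moved the median of all names to -0.24 and put CFAD at 0.86 and DAF at 0.80, under the 2-fold mark. For the wider list, 8 of 24 names were at least 2-fold higher in eye by the main measure, against 11.8% of all names. This was 5 of 24 with pseudocount 5 (6.09%) and 5 of 9 with the filter at 10 RPKM (12.8%). With transcripts of 200 bases or more it was 6 of 22 (11.7%), and with sums 10 of 26 (16.8%). It was 10 of 24 each with pseudocount 0.1 (14.96%) and the plain ratio (15.3%). At least 2-fold higher in retina was 1 of 24 by the main measure, against 3.60% of all names. This was 0 of 24 with pseudocount 5 (1.98%), 3 of 26 with sums (19.3%) and 3 of 24 with the plain ratio (4.83%). It was 2 of 21 with best-matching transcripts (3.17%) and 2 of 24 each with pseudocount 0.1 (4.59%) and strict E-values (3.23%). With strict hits and long transcripts it was 2 of 22 (3.24%). The median of the wider list, 0.44, was 0.24 with best-matching transcripts, 0.55 with sums, 0.26 at an equal total, 0.62 with pseudocount 0.1, 0.64 with the plain ratio, 0.20 with pseudocount 5, 0.32 with no filter and 1.35 with the filter at 10 RPKM. Where no construction is named, the cause was not tested. Few reads lie behind the retina values of CFAB, ITAM, C1QR1 and ITB2, at 36, 36, 22 and 14, on transcripts of 253, 315, 199 and 174 bases.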

Other observations

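Secreted proteins that share the C1q domain but are neither members nor on the wider complement list were looked at after the data were seen. Of 14 such names (C1q-like, C1q and TNF-related, and cerebellin proteins), all were found in eye, and 4 had no counterpart in retina. Over all names, 13949 of the 15287 in eye had one. Of the 10 compared, 6 were higher in retina (also 6 with an equal total over proteins), where 50.3% of all names were, and none of them passed the 2-fold mark. In eye 2 passed it, against 11.8% of all names. C1QL2, a C1q-like protein secreted at synapses, had 34.2 RPKM (eye) and 44.9 RPKM (retina). C1QT4 was at 14.8 and 18.6 RPKM, and the synapse organiser CBLN1 at 5.07 and 8.45. C1QT5, a protein of the pigment epithelium linked to a late-onset retinal degeneration, was in the eye table only, at 44.7 RPKM. The 2 names past the mark in eye were C1QT1, at 3.80 and 0.834 RPKM, and C1QT2, at 7.21 and 1.34. C1QT1 reached 1 RPKM in eye only and C1QL4 in retina only, so each entered through the tissue where it was higher.

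Clusterin-like protein 1, CLUL1, a relative of clusterin known from cone photoreceptors, was higher in retina, at 312 RPKM against 160 in eye, with a log2 difference of -0.96. The 5 photoreceptor markers found were also lower in eye, with differences from -1.11 to -0.66, among them cone arrestin, ARRC, with -0.96. TRFE, from the list of plasma proteins of liver, differed by -1.09. Whether the CLUL1 transcripts came from cones was not tested.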
